A study of Bos taurus with 40 samples.

Results

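Liver of 7 Simmental heifers, 4 of high and 3 of low residual feed intake (RFI), was compared by RNA sequencing. RFI is the difference between what an animal eats and what its weight and growth predict, so low RFI animals are the feed-efficient ones. The 7 samples were selected from the 10 labelled as heifer liver, out of 40 liver and muscle samples of bulls and heifers in the whole series, by leaving out 3 samples that carried a skeletal muscle profile. The high RFI heifers were 2670, 2704, 2705 and L60, and the low RFI heifers were L59, 2632 and 2660. The samples left out were 2728 of the high RFI group and L58 and L16 of the low RFI group. The question was which liver genes differ between efficient and inefficient heifers once the samples with muscle RNA are set aside.

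All animals were purebred Simmental cattle, housed at approximately 15 months of age, fed concentrate without restriction with a small amount of grass silage, and biopsied at the end of the intake recording. The herd was bred as a high and a low RFI line with no sire in common, and animals were then ranked on their own RFI within sex. The line of each animal is not given in the sources used here, so the part of family in a difference was not tested. Each sample is a percutaneous liver biopsy of 1 animal, and in such bulk tissue fewer cells of a type and less RNA per cell cannot be told apart. The comparison group used for contrast was liver of 10 bulls of the same herd, 5 of high and 5 of low RFI, which were ranked separately from the heifers. In the study's summary of its groups, the mean RFI of high and low animals lay further apart in bulls than in heifers. The RFI contrast is thus not of equal size in the sexes, and its part in differences between them was not tested.

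The liver makes most plasma proteins, and these are folded in the endoplasmic reticulum. There the chaperone HSPA5 (BiP) binds unfolded chains with the help of partner proteins, and its gene is the classical target of the unfolded protein response, which raises chaperone production when folding demand exceeds capacity. Sugar nucleotides such as GDP-mannose and UDP-N-acetylglucosamine feed the glycans that are attached to proteins in the same compartment.

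The samples were chosen on the summed CPM (the reads of a gene, scaled by the authors to a fixed total of reads per sample) of muscle genes, which is given here as a description only. The 27 muscle-enriched genes had means more than 32-fold higher in heifer muscle than in bull liver, and the 32 liver-enriched genes more than 32-fold higher in bull liver, among 4458 genes listed for all 3 tissues. The muscle-enriched genes summed to between 475 and 2050 CPM in the 7 samples. In the 3 samples left out they summed to 155311 CPM (2728), 268913 CPM (L16) and 380885 CPM (L58). The sample just inside was 2705, with 2050 CPM and an estimated muscle share of 0.322%, and the sample just outside was 2728, with an estimated share of 42.6%. A second estimate of the share, from the fall of the liver-enriched genes, put L60 (13.0%) and 2660 (8.17%) nearest to 2728 (55.4%) and the other 5 samples at 0%. By both estimates a gap separated the samples kept from those left out. The liver-enriched genes summed to between 194982 and 226561 CPM in the 7 samples, against 97155 CPM in 2728, 50326 CPM in L16 and 1533 CPM in L58. As the samples were kept for low muscle-enriched sums, the high liver-enriched sums in all 7 are a description too. Cell type markers could not be looked up by name, since the files give gene identifiers only.

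**Figure D1:**
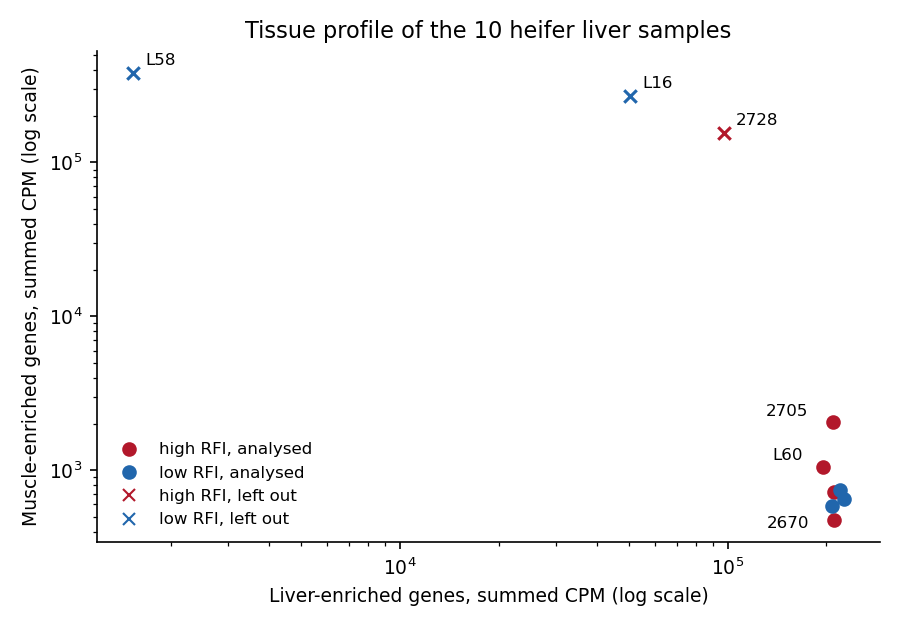
Summed CPM of 27 muscle-enriched genes (vertical, log scale) against that of 32 liver-enriched genes (horizontal, log scale) in the 10 heifer liver samples, by RFI group. The 7 samples analysed (circles) lie between 475 and 2050 CPM of muscle-enriched genes, and the 3 left out (crosses) between 155311 and 380885 CPM.

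Within the 7 samples, the muscle-enriched genes were unevenly spread at this low level. The muscle share estimated from them was 0% in 2670, 2704, L59, 2632 and 2660, 0.094% in L60 and 0.322% in 2705. The muscle-enriched sums were 475, 721, 2050 and 1056 CPM in high RFI heifers 2670, 2704, 2705 and L60, and 750, 647 and 589 CPM in low RFI heifers L59, 2632 and 2660. The 2 highest values belonged to high RFI heifers, and the groups overlapped. Of the 27 genes, 20 were lower and 7 higher in low RFI, with a median log2 fold change of −0.22, and none passed the test across all genes. Their part in the results below was not tested. The liver-enriched sums were 194982 to 211086 CPM in high RFI and 207657 to 226561 CPM in low RFI heifers, and also overlapped.

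Depth, recovered from the deposited values, was 8433913 to 35691049 reads per high RFI heifer and 12153658 to 18456327 reads per low RFI heifer (exact two-sided permutation test, p = 0.629). With 4 samples against 3 there are 35 ways to assign the animals, and 0.0571 is the smallest two-sided p that an exact permutation test of a single value can give. The files list 7231 genes for heifer liver, all with a mean of at least 6.77 CPM over the 7 samples. Genes below that level are not analysed here.

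The 7 livers did not separate by RFI group. The first principal component of the log2 values held 38.9% of the variance and set apart low RFI heifer 2632 (33.0, against −14.5 to 10.8 in the other 6). The second held 18.3% and set apart low RFI heifer 2660 (−23.0, against −5.81 to 10.2). Heifer 2632 had the highest value of the 7 in 1976 genes and the lowest in 2014 genes. Its median correlation with the other samples was 0.940, against 0.960 to 0.970 for the rest. The low RFI samples correlated less with each other (0.933 to 0.961 over 3 pairs) than the high RFI samples did (0.959 to 0.975 over 6 pairs), and pairs across the groups spanned 0.932 to 0.975. These correlations are over genes, which are not independent replicates.

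**Figure D2:**
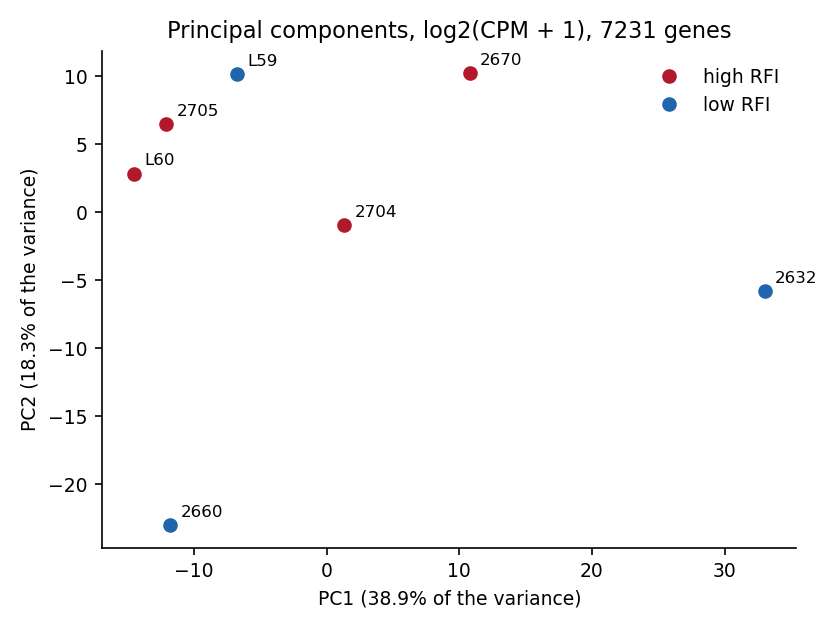
First and second principal components of log2(CPM + 1) over 7231 genes in the 7 heifer livers, coloured by RFI group. High and low RFI heifers are intermingled, with 2632 apart on the first component (33.0) and 2660 on the second (−23.0).

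No gene passed the test between low and high RFI. At an adjusted p below 0.1, limma called 0 of 7231 genes (0%), with a smallest adjusted p of 0.832. At an unadjusted p below 0.05 there were 181 genes, or 2.5%, with 87 higher and 94 lower in efficient heifers. That is less than the share of 0.05 expected when no gene differs. EdgeR on the recovered reads, the tool named in the study's methods, also called 0 genes, with 187 at an unadjusted p below 0.05 and a smallest adjusted p of 0.640. DESeq2 on the same reads called 5 genes, 4 higher and 1 lower in low RFI, and its count ran from 1 gene without high RFI heifer 2670 to 26 genes without low RFI heifer L59.

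Differences between the groups were small for most genes. The log2 fold change was within 0.5 in 6984 genes (96.6%), and its median was −0.012, with a median standard error of 0.186. In 278 genes (3.84%) the 2 groups did not overlap, with all 3 low RFI heifers above the 4 high RFI heifers in 123 genes (1.7%) and below them in 155 genes (2.14%). Random assignment of the animals would on average separate a share of 0.0571 of the genes in either direction, which is more than was seen. Changes of over 1 on the log2 scale were seen in 25 genes, 12 higher and 13 lower, and of these 4 and 3 had groups that did not overlap.

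Setting the muscle samples aside narrowed the spread. The median standard deviation of a gene around its group mean was 0.244 on the log2 scale in the 7 samples, against 0.548 in all 10 samples under their labels, and it was smaller in the 7 for 91.4% of the genes. The rule that chose the samples works in this direction, so the figure is a description. The same measure was 0.210 in liver of the 10 bulls. The 10 samples likewise gave 0 genes by limma.

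The gene with the smallest p was ENSBTAG00000018137, for which the sources used here give no name. It stood at 259, 217, 262 and 301 CPM in high RFI heifers 2670, 2704, 2705 and L60. In low RFI heifers L59, 2632 and 2660 it stood at 608, 415 and 745 CPM. The groups did not overlap, and the low RFI values were the more spread of the groups. The log2 fold change was 1.22 (SE 0.193, 95% interval 0.79 to 1.66). By limma it did not pass (adjusted p = 0.832), nor by edgeR (adjusted p = 0.640), while DESeq2 gave an adjusted p of 1.36e-05. With each animal left out in turn, its log2 fold change stayed between 1.05 (without 2660) and 1.42 (without 2632), its limma adjusted p ran from 0.177 to 1.00 and its DESeq2 adjusted p from 1.94e-10 to 0.00257.

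The next 3 genes by limma p also have no name in the sources used here. Like the gene above, they were picked by the p of these same 7 samples. That choice favours groups that do not overlap, so the lack of overlap in each is a description, beside 3.84% of all genes. ENSBTAG00000021808 stood at 12.3, 10.8, 9.63 and 9.96 CPM in high RFI and at 17.5, 17.1 and 16.9 CPM in low RFI heifers, in the same order of animals (log2 fold change 0.72, SE 0.154). ENSBTAG00000021287 stood at 111, 99.2, 105 and 104 CPM against 63.0, 54.4 and 72.99 CPM (log2 fold change −0.65, SE 0.140). ENSBTAG00000004256 stood at 25.02, 25.8, 23.4 and 26.6 CPM against 16.7, 13.7 and 16.9 CPM (log2 fold change −0.57, SE 0.129). Each had a limma adjusted p of 1.00, and DESeq2 gave 0.0892 for ENSBTAG00000021808, 0.0625 for ENSBTAG00000021287 and 0.128 for ENSBTAG00000004256.

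**Figure D3:**
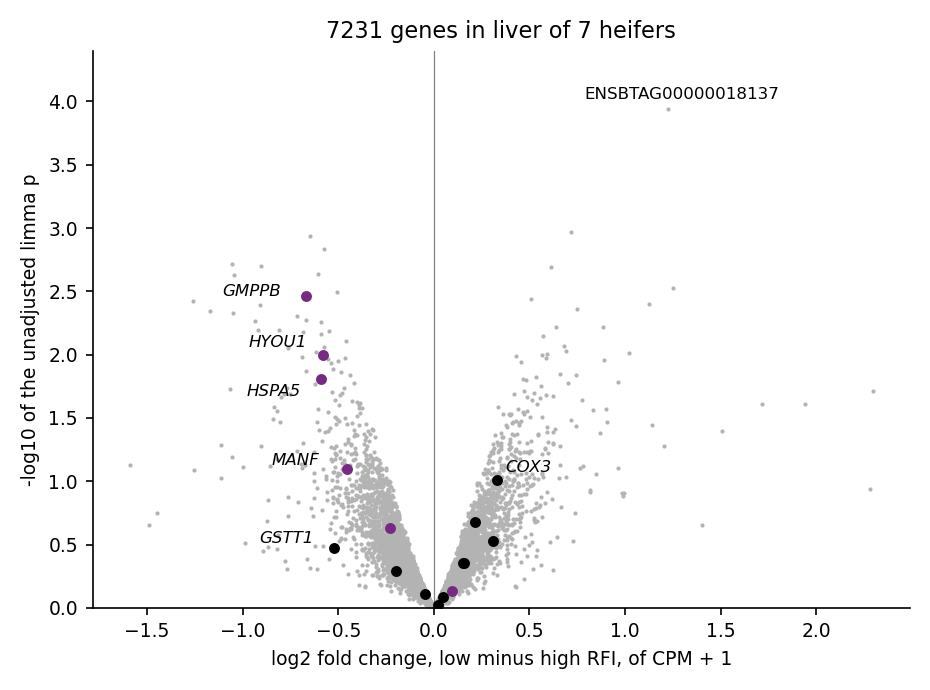
Log2 fold change, low minus high RFI, of CPM + 1 (horizontal) against −log10 of the unadjusted limma p (vertical) for 7231 genes in 7 heifer livers. The 6 endoplasmic reticulum and GDP-mannose genes described in the text are in purple and the study's other named genes in black, and ENSBTAG00000018137 is the topmost gene.

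The genes that could be named were 11 that the study lists for bull liver and 5 mitochondrially encoded genes that it lists for heifer muscle. Neither list was chosen on heifer liver. Of the 11 bull liver genes, 7 had lower and 4 higher values in the low RFI group, with a median log2 fold change of −0.23, beside a median of −0.012 over all genes. None passed limma, edgeR or DESeq2 at an adjusted p below 0.1. In 3 of the 11, HSPA5, HYOU1 and GMPPB, all low RFI heifers lay below all high RFI heifers, beside 2.14% of all genes. The same 3 genes had an unadjusted limma p below 0.05 with lower values in low RFI, beside 1.3% of all genes. None of the 11 had the groups apart in the other direction, beside 1.7% of all genes.

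Of the 5 endoplasmic reticulum genes, 4 had lower and 1 higher values in the low RFI group. HSPA5, the main chaperone of this compartment, stood at 311, 229, 192 and 326 CPM in high RFI heifers 2670, 2704, 2705 and L60. In low RFI heifers L59, 2632 and 2660 it stood at 191, 145 and 154 CPM. The groups touched, as 2705 and L59 differed by less than 1 CPM, and the log2 fold change was −0.59 (SE 0.200, 95% interval −1.04 to −0.14, rank 59 of 7231 genes by limma, adjusted p = 1.00).

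HYOU1, the exchange factor that releases ADP from HSPA5, followed the same order of groups. It stood at 47.7, 35.6, 35.1 and 52.6 CPM in high RFI and 32.5, 21.8 and 26.1 CPM in low RFI heifers. The log2 fold change was −0.58 (SE 0.179, 95% interval −0.98 to −0.17, rank 41 by limma, adjusted p = 1.00). For both genes, 2670 and L60 were the highest 2 of the 7 livers.

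MANF, a small secreted protein of the endoplasmic reticulum that is induced by unfolded proteins, stood at 47.0, 33.1, 24.4 and 38.7 CPM in high RFI and 26.3, 27.0 and 19.0 CPM in low RFI heifers. The groups overlapped, because high RFI heifer 2705 was below 2 of the low RFI heifers (log2 fold change −0.45, SE 0.231, 95% interval −0.98 to 0.066). DNAJB11, the co-chaperone that hands unfolded chains to HSPA5, averaged 26.3 ± 5.86 CPM (SD, n = 4) in inefficient and 20.8 ± 1.27 CPM (SD, n = 3) in efficient heifers, with overlap and a log2 fold change of −0.23 (SE 0.180, 95% interval −0.63 to 0.18), which was −0.099 without 2670. CRELD2, a calcium-binding protein induced by the same stress, had nearly equal means of 12.4 ± 3.66 CPM (SD, n = 4) and 12.7 ± 4.04 CPM (SD, n = 3), with a log2 fold change of 0.096 (95% interval −0.54 to 0.73).

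Across the 7 livers, HSPA5 and HYOU1 varied together (Pearson r = 0.969, exact permutation p = 0.00278, Spearman rho = 0.929, exact permutation p = 0.00675). Over the 15 pairs among the 5 genes and GMPPB, the adjusted p was 0.0417 for this Pearson r and 0.101 for this rho, and no other pair had an adjusted p below 0.05 for r or rho. Without the 2 samples farthest from the median of HSPA5, r was 0.895. With the group means removed, r was 0.921 over the 7 animals pooled. This value was not tested and does not show the relation in each RFI group alone. The same measure was 0.971 for MANF and CRELD2 and 0.678 for HSPA5 and CRELD2. HSPA5 and MANF had r = 0.857 (exact permutation p = 0.0143, adjusted p = 0.0873), and HSPA5 and CRELD2 had r = 0.325 (exact permutation p = 0.469).

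Of the 2 genes of sugar nucleotide synthesis, GMPPB had groups apart and GNPNAT1 did not, beside groups apart in 3.84% of all genes. With 2 genes this count is a description only. GMPPB, a subunit of the enzyme that makes GDP-mannose, stood at 20.3, 17.9, 19.3 and 20.5 CPM in high RFI heifers 2670, 2704, 2705 and L60. It stood at 13.3, 12.3 and 8.66 CPM in low RFI heifers L59, 2632 and 2660. The high RFI heifers lay close together and all low RFI heifers well below them (log2 fold change −0.67, SE 0.172). It ranked 12 of 7231 genes by limma (adjusted p = 1.00), and DESeq2 gave an adjusted p of 0.382.

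GNPNAT1, which acetylates glucosamine-6-phosphate on the way to UDP-N-acetylglucosamine, averaged 16.3 ± 3.28 CPM (SD, n = 4) in inefficient and 14.8 ± 2.55 CPM (SD, n = 3) in efficient heifers, with overlap and a log2 fold change of −0.049 (95% interval −0.43 to 0.33).

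With each animal left out in turn, the log2 fold change was −0.73 to −0.49 for HSPA5, −0.69 to −0.48 for HYOU1, −0.76 to −0.48 for GMPPB and −0.61 to −0.28 for MANF. The animals are labelled with 4-digit tags or with short tags (L59 and L60), and why is not stated. Among the 5 animals with 4-digit tags the log2 fold changes were −0.59 for HSPA5, −0.61 for HYOU1, −0.75 for GMPPB and −0.47 for MANF. The short tags leave 1 animal in each group, so no value within them was tested.

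In the other 4 of the 11 genes low RFI heifers lay both above and below the range of the high RFI heifers. GSTT1, a glutathione transferase of detoxification, stood at 30.4, 15.2, 24.3 and 20.9 CPM in high RFI heifers. In low RFI heifers L59, 2632 and 2660 it stood at 9.30, 39.8 and 7.46 CPM, so that 2632 was the highest of the 7 and the other low RFI heifers the lowest. The log2 fold change was −0.52 (SE 0.511, 95% interval −1.67 to 0.63). It was −1.26 without 2632, −0.21 without L59 and −0.079 without 2660, and edgeR gave −0.14 with all 7, so its size rested on single animals and on the tool.

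DBP, a transcription factor driven by the circadian clock, stood at 53.5 to 68.6 CPM in the 4 high RFI heifers and at 63.0, 112 and 49.2 CPM in L59, 2632 and 2660. The log2 fold change was 0.31 (SE 0.279), and −0.059 without 2632.

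ACTA2, the smooth muscle actin of vessels and activated stellate cells, stood at 30.7 to 38.4 CPM in high RFI heifers and at 44.4, 17.2 and 49.5 CPM in L59, 2632 and 2660. Its log2 fold change of 0.019 (SE 0.292) was turned to −0.055 by scaling to library size alone. LIMS2, an adaptor of focal adhesions, had means of 110 ± 13.1 CPM (SD, n = 4) and 111 ± 32.5 CPM (SD, n = 3), and its log2 fold change of 0.051 (SE 0.226) became −0.026 under that scaling.

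Of the 5 mitochondrially encoded genes, 4 had higher and 1 lower values in the low RFI group, with a median log2 fold change of 0.16, and none passed the test. COX3, a subunit of cytochrome c oxidase, stood at 7429, 5029, 6557 and 7968 CPM in high RFI heifers 2670, 2704, 2705 and L60 and at 8140, 7901 and 7758 CPM in low RFI heifers L59, 2632 and 2660. The low RFI values were close together and within or just above the upper part of the high RFI range. After scaling all low RFI heifers lay above the high RFI heifers, but in the deposited CPM L60 lay above 2 of them (log2 fold change 0.33, SE 0.181, 95% interval −0.074 to 0.74). COX1, another subunit of that enzyme, had a log2 fold change of 0.15 (SE 0.187), and cytb, the cytochrome of complex III, 0.22 (SE 0.161). ND6 and ND5, subunits of complex I, had 0.16 (SE 0.199) and −0.20 (SE 0.284), and for each of these 4 genes the groups overlapped. Without high RFI heifer 2704, the lowest of the high RFI group in all 5 genes, the log2 fold change was 0.21 for COX3, 0.034 for COX1, 0.14 for cytb and 0.013 for ND6. Without low RFI heifer 2660 it was 0.069 for COX1 and 0.061 for ND6.

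The RFI difference was then set against that in liver of the 10 bulls, where HSPA5 had its highest values in the low RFI group. The 11 genes were listed by the study because they differ in these bulls, so their bull values are a description, and a test of the difference between the sexes is not independent of that choice. Between low and high RFI bulls, limma here called 0 of 7363 genes at an adjusted p below 0.1 (0%), with 555 at an unadjusted p below 0.05, and edgeR called 0, with 598. The study's calls of the 11 genes at that threshold were thus not recovered with all 10 bulls. The study's edgeR fit used moderated tagwise dispersion over a longer list of genes, whereas the edgeR fit here used quasi-likelihood. The part of these differences was not tested. The outcome also turned on low RFI bull 2713 (2368340 reads), left out after the data had been seen. Without it, limma gave the RFI difference in bulls an adjusted p of 0.00273 for HSPA5 and HYOU1. It was 0.0200 for DNAJB11 and MANF, and 0.0863 for CRELD2. For GMPPB, GNPNAT1, GSTT1, DBP, ACTA2 and LIMS2 it was 0.142 or higher. HSPA5 stood at 363, 192, 277, 249 and 243 CPM in high RFI bulls 2701, 2703, 2641, 64 and 68. In low RFI bulls 2659, 2669, 2712, 2713 and 2723 it stood at 537, 680, 1031, 298 and 749 CPM. The high RFI values spanned similar ranges in heifers (192 to 326 CPM) and bulls (192 to 363 CPM), whereas the low RFI values ran from 145 to 191 CPM in heifers and from 298 to 1031 CPM in bulls.

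**Figure D4:**
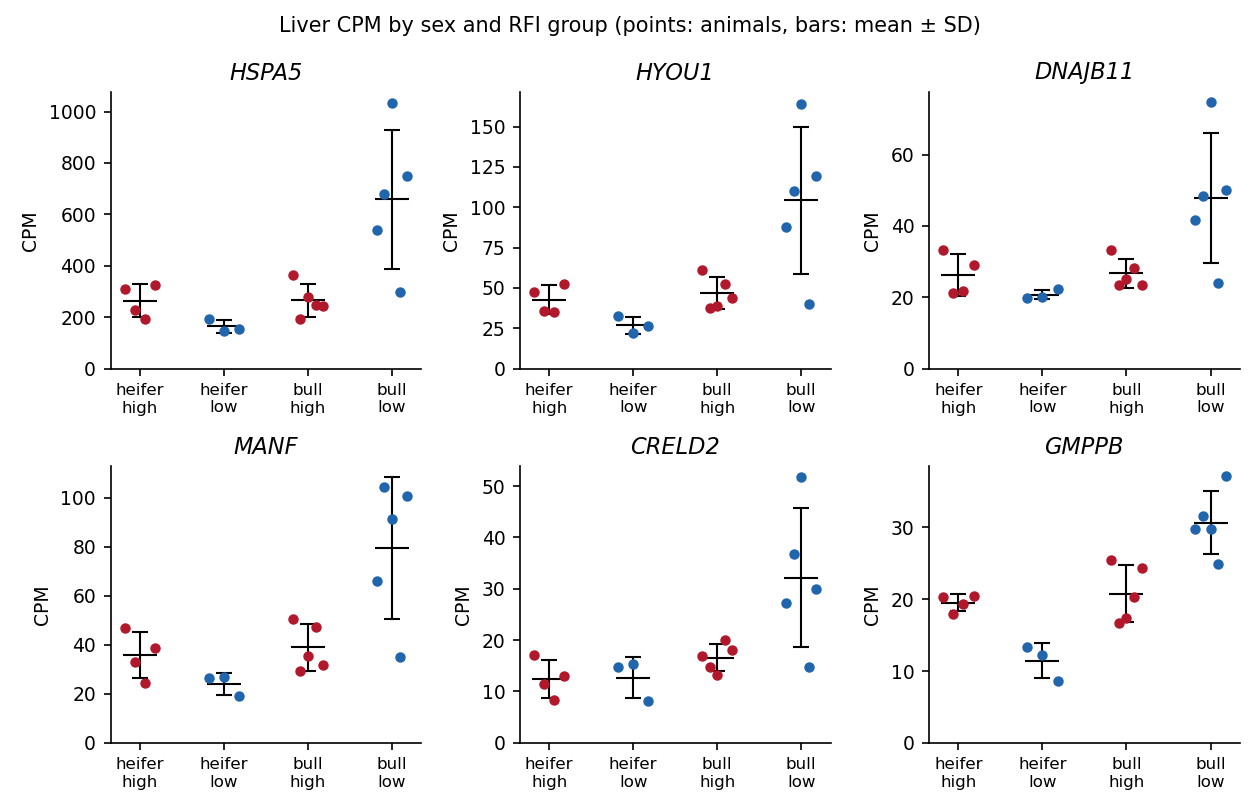
CPM of 6 genes in liver of 7 heifers and 10 bulls, by RFI group. Points are animals and bars are means with SD. For HSPA5, HYOU1 and GMPPB the 3 low RFI heifers lie below the 4 high RFI heifers, while the means of low RFI bulls lie above those of high RFI bulls, with bull 2713 (HSPA5 at 298 CPM) the lowest of the low RFI bulls.

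Of the 8 genes higher in low RFI bulls, 6 were lower in low RFI heifers, and of the 3 genes lower in low RFI bulls, 2 were higher in low RFI heifers. Over all genes listed for both sexes, 49.6% had the same sign in both. Among the genes counted as opposite, the heifer changes of DNAJB11, GNPNAT1, DBP and LIMS2 were smaller than their standard errors. Those of GNPNAT1, DBP and LIMS2 also changed sign in some alternatives. In a single fit of both sexes with limma, the heifer minus bull difference of the RFI effect was tested over 7045 genes listed for both. It called 0 genes at an adjusted p below 0.1 (0%), with 256 at an unadjusted p below 0.05, and edgeR also called 0, with 293 at an unadjusted p below 0.05. At an unadjusted p below 0.05, 7 of the 11 genes had a lower effect in heifers, beside 2.07% of all genes, and 2 (DBP and LIMS2) a higher one, beside 1.56% of all genes. Since the 11 genes were listed for a difference in these bulls, an excess over all genes follows in part from that choice. Among the 7, ACTA2 and GNPNAT1 had heifer log2 fold changes of 0.024 and −0.044, against 0.97 and 0.56 in bulls.

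GMPPB ranked first in this test, ahead of HSPA5. It stood at 25.5, 16.6, 17.3, 20.3 and 24.3 CPM in high RFI bulls 2701, 2703, 2641, 64 and 68 and at 29.8, 31.6, 29.8, 24.9 and 37.1 CPM in low RFI bulls 2659, 2669, 2712, 2713 and 2723. The RFI difference was 0.59 in bulls and −0.66 in heifers on the log2 scale, a difference of −1.26 (SE 0.225, 95% interval −1.73 to −0.79, limma adjusted p = 0.191, edgeR adjusted p = 0.162). For HSPA5 the RFI difference was 1.28 in bulls and −0.58 in heifers, a difference of −1.87 (SE 0.410, 95% interval −2.73 to −1.003, limma adjusted p = 0.909). HYOU1 differed by −1.66 (SE 0.426) and MANF by −1.44 (SE 0.417), both with a limma adjusted p of 0.959. These 4 genes were among the 10 with the smallest p in the test, a rank that also draws on the bull values they were listed for.

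**Figure D5:**
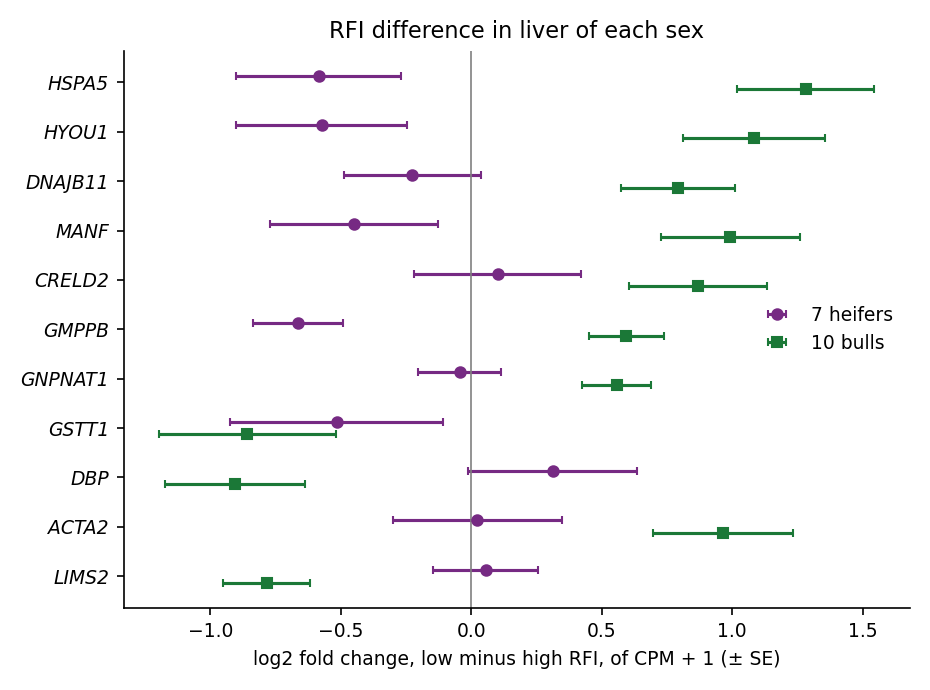
Log2 fold change, low minus high RFI, of CPM + 1 with its standard error for 11 genes in liver of 7 heifers (circles) and 10 bulls (squares), from the fit of both sexes. HSPA5 is at −0.58 in heifers and 1.28 in bulls, and GMPPB at −0.66 and 0.59.

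The number of calls turned on 1 bull. Low RFI bull 2713 had the lowest depth of the bulls, 2368340 reads, and HSPA5, HYOU1, MANF and GMPPB at the lowest level of the low RFI bulls. Without it, an alternative added after the data had been seen, limma and edgeR each called 4 of 7045 genes, and by limma these were HSPA5 (difference −2.15, SE 0.307, adjusted p = 0.00921), HYOU1 (−1.98, SE 0.269, adjusted p = 0.00921), GMPPB (−1.35, SE 0.215, adjusted p = 0.0224) and MANF (−1.73, SE 0.312, adjusted p = 0.0705). EdgeR gave adjusted p of 0.0102, 0.0102, 0.0279 and 0.0776 for these genes in the same order. DNAJB11 had a limma adjusted p of 0.104 and CRELD2 of 0.767. As 2713 was the lowest low RFI bull in HSPA5, HYOU1, MANF and GMPPB, leaving it out raised their RFI difference in bulls. It went from 1.28 to 1.56 for HSPA5, 1.08 to 1.41 for HYOU1, 0.99 to 1.27 for MANF and 0.59 to 0.68 for GMPPB. The heifers were the same in both fits, and the genes were listed for a difference in these bulls. The 4 calls are therefore a description, not independent evidence on the sexes. Without high RFI bull 2701, 1 gene was called (GMPPB, adjusted p = 0.0935), and without low RFI heifer L59 another gene, which is none of the 11. Leaving out any other animal gave 0 genes.

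Among the other genes higher in low RFI bulls, the difference between the sexes was −1.02 (SE 0.342) for DNAJB11, −0.94 (SE 0.420) for ACTA2, −0.77 (SE 0.414) for CRELD2 and −0.60 (SE 0.206) for GNPNAT1. Of the genes lower in low RFI bulls, DBP differed by 1.22 (SE 0.421) and LIMS2 by 0.84 (SE 0.260). GSTT1 was lower in low RFI in both sexes, and its difference of 0.34 (95% interval −0.77 to 1.46) covers 0. None of these 7 had a limma adjusted p below 0.959. Over all 7045 genes, which are not independent replicates, the RFI differences of the 2 sexes had a Pearson r of 0.017 and the same sign in 49.6%.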

How the data were processed

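Liver mRNA libraries were sequenced as single-end reads. Per the study's methods and the submitters' processing notes, the authors checked reads with FastQC 0.11.5, aligned them with STAR 2.5.1 to the UMD3.1 build, counted them per protein-coding gene by HTSeq 0.6.1p2 and tested counts with edgeR 3.5 in R 3.4. The deposited unit is CPM, for part of the genes; how these were chosen is not given in the sources used here. In each sample the values were whole multiples of what 1 read is worth (100% within 0.01 of a read), so reads and depth (8433913 to 35691049) were recovered exactly, and a CPM then stands for 8 or more reads.

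The 7 samples were grouped by their labels and fitted with limma 3.58.1 in R 4.3.3 on log2(CPM + 1) after TMM scaling, with a trended variance and Benjamini-Hochberg adjusted p below 0.1. Requiring over 1 CPM in 3 or more samples removed no gene. Fold changes are low minus high RFI and understate those of low genes. CPM were tested with limma because they are not counts. EdgeR 4.0.16 (quasi-likelihood) and DESeq2 1.42.0 were run on the recovered reads, and DESeq2 gave no adjusted p for 4 genes. The interaction of sex and RFI was fitted over 17 samples. Single values were compared with exact permutation tests in scipy 1.17.1 (Python 3.11.15), and plots drawn with matplotlib 3.10.9. Scripts were tested on simulated data. The muscle share was estimated from the muscle-enriched genes, relative to the means of heifer muscle and bull liver.

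The samples, gene lists and tests were chosen with earlier results of these data known. The rule for named genes took calls, the smallest p, the largest changes, members of marker and pathway lists, and the study's genes. Files give identifiers only, so names came from the study for 16 genes, the other lists were not analysed, and 4 identifiers are printed. CPM are not per length, so levels were compared within a gene only. No sequences or coordinates are given. Alternatives are in the closing section.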

Additional observations from a re-analysis of the deposited data

Results flagged for a closer look

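Of 19 measures checked in the 4 high RFI heifers for 1 sample far from the others, the summed CPM of the liver-enriched genes stood out, with L60 at 194982 CPM and the others at 209306 to 211086 CPM (the gap was 0.890 of the range). Chance flags about 1 in 20 such groups. L60 was also the shallowest of the 7 samples, with 8433913 reads. The low RFI group of 3 was not checked in this way.

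The 3 heifer liver samples left out held muscle-enriched genes at 155311 CPM (2728), 380885 CPM (L58) and 268913 CPM (L16), far above the 2050 CPM at most in the 7 samples analysed.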

How the results depend on the processing

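DESeq2 called 5 genes and the 4-digit tags alone 1 gene by limma, against 0 in the fit reported and in its 14 other alternatives apart from leaving out animals. Leaving out each animal gave 0 to 2 genes (2 without low RFI heifer L59, by limma and by edgeR), and for the test of the sexes 0 to 4 genes. Each bull was left out as an alternative added after seeing the data. Scaling to library size turned the log2 fold change of ACTA2 to −0.055 and of LIMS2 to −0.026, and tag style as a covariate that of ACTA2 to −0.0027. The 4-digit tags alone gave 0.030 for GNPNAT1 and −0.13 for ACTA2. All 10 samples gave −0.64 for CRELD2, −0.054 for DBP, −0.0088 for COX1 and −0.43 for ND6, and with the muscle share as a covariate −0.39 for CRELD2 and −0.028 for ND6. Sample weights gave 0.017 for ND5. Leaving out animals gave −0.24 to 0.45 for ACTA2, −0.18 to 0.31 for LIMS2, −0.083 to 0.39 for CRELD2, −0.12 to 0.060 for GNPNAT1, −0.059 to 0.58 for DBP and −0.36 to 0.093 for ND5, and −0.41 to 0.78 for the difference of GSTT1 between the sexes. The cause of these changes was not tested. HSPA5, HYOU1, GMPPB, MANF, DNAJB11, GSTT1, COX3 and cytb kept the direction of their log2 fold change in all 22 alternatives, which are not independent checks. Dropping the filter, which removed no gene, or the trended variance cannot change a log2 fold change. The fits of all 10 samples include those with a muscle profile. No paired analysis was possible because the replicate numbers follow accession order, and those shared by the groups name different animals. The median standard error of a log2 fold change was 0.186.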
